A study of Mus musculus with 11 samples.

Results

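The genes described here serve protein folding in the endoplasmic reticulum (ER) and its stress response, and 36 of the 19329 gene IDs of the deposited table were chosen for it by symbol. They comprise 18 folding chaperones and oxidoreductases, 7 genes of ER-associated degradation, 5 sensors and transcription factors and 6 stress-induced genes, and each of the 36 has a row of its own. RNA of whole pancreatic islets was sequenced in bulk from untreated, chow-fed male mice aged 14 weeks. There were 6 wild-type libraries and 5 from mice homozygous for PDX1P33T, a germline point mutation of the transcription factor PDX1 introduced with CRISPR-Cas9, which exchanges a proline for a threonine and is present in all cells of the animal. The islets were kept in culture after isolation, and the study describes its islet samples as biological replicates that each combine several mice, so n counts libraries throughout. Values are FPKM, that is, fragments scaled by gene length and by the number of counted reads of the library.

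The PDX1P33T values stand on the rows of their own genes, whereas most wild-type values are placed on rows that belong to a different gene. Wild-type values were therefore used for 22 of the 36 genes, whose wild-type row could be identified, and not for the other 14. For *Ddit3* the row was known from the reads given in the study's supplementary gene table, and for the other 21 it was found from the recovered gene length and level, a rule that accepts no difference of group means above 4-fold. With the stricter condition that no other candidate row lies within 16-fold, 12 of the 22 were still identified. Those lost were *Pdia3*, *Ero1a*, *Dnajb9*, *Dnajc3*, *Creld2*, *Syvn1*, *Derl1*, *Ern1*, *Atf4* and *Chac1*. Their wild-type values below rest on the less strict condition. *Ddit3* is in the part of that gene table used here because the table is ordered by the difference between genotypes, so its presence is not independent of that difference. The other 21 were not placed by that part, so their place among the remaining genes is not independent of the difference either.

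The ER folds secreted proteins, which in beta cells are mostly proinsulin, with the help of the HSP70 chaperone BiP, its cochaperones, the lectin chaperones and the protein disulfide isomerases. When unfolded proteins accumulate, IRE1, PERK and ATF6 start the unfolded protein response: IRE1 splices the *Xbp1* transcript, ATF6 is cleaved to a transcription factor, and PERK phosphorylates eIF2alpha, which favours translation of ATF4. XBP1 and ATF6 induce chaperones and degradation genes, while ATF4 and its target CHOP induce amino acid and cell death genes, and for this reason the groups are described apart. In insulin-secreting cells this response is known to be active already at rest.

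The libraries held between 19311937 and 37094286 counted reads, and 34 of the 36 genes had at least 600 reads in every PDX1P33T library. The libraries carried islet RNA: the 7 beta cell markers summed to between 235821 and 333379 FPKM over the PDX1P33T libraries. *Pdx1* itself was at 79.0 ± 0.881 FPKM (SD, n = 5) in PDX1P33T, which cannot show a point mutation, and its wild-type row was not identified. PDX1P33T replicate 2 and wild-type replicate 3 stood apart, with median correlations of log2 values across genes of 0.977 and 0.969 with the other libraries of their genotype against at least 0.988 and 0.982 for the rest. Over all gene IDs with a mean of at least 1 FPKM, PDX1P33T replicate 2 was the highest of its 5 libraries for 41.5% and the lowest for 36.9%. Wild-type replicate 3 was the lowest of its 6 for 34.9% of such genes in the fit and the highest for 30.7%. Several results that rest on these libraries are given with and without them.

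The promoters of these genes are known for short sequence elements through which the response acts, and they are shown here because genes that share an element can be compared across the libraries. Of the 36 genes, 31 have a promoter window of 300 bases in RefSeq (GRCm38.p6), from 250 bases before to 50 after the transcription start, and *Hyou1*, *Manf*, *Derl1*, *Atf6* and *Ppp1r15b* have none. The ER stress element, CCAAT and CCACG with 9 bases between them, was found on either strand in 10 of the 31, namely *Hspa5*, *Hsp90b1*, *Calr*, *Canx*, *Pdia6*, *Ero1b*, *Dnajc3*, *Creld2*, *Derl3* and *Syvn1*. It occurs in 0.119% of all 32851 windows. The ER stress element II, ATTGG and CCACG with 1 base between them, was found in *Herpud1* and *Dnajb11* and in 0.0365% of all windows. The C/EBP-ATF response element, written TGATGNAA, was found in *Asns*, *Chac1*, *Trib3*, *Herpud1* and *Cdnf*, against 3.97% of all windows. The unfolded protein response element TGACGTGG was found in 0 of the 31 and in 0.676% of all windows. Matches of different motifs did not overlap, and a match describes letters only, not binding.

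The 250 bases before the start are printed 5′ to 3′ on the strand of the gene for 8 genes, with matches in capitals; a match on the opposite strand reads as its reverse complement. *Hspa5* (chr2:34771840-34772089, plus strand), *Hsp90b1* (chr10:86705445-86705694, minus strand), *Pdia6* (chr12:17266339-17266588, plus strand) and *Creld2* (chr15:88819396-88819645, plus strand) hold the ER stress element, *Hsp90b1* in both orientations. *Herpud1* (chr8:94386179-94386428, plus strand) holds the ER stress element II and the C/EBP-ATF response element. *Asns* (chr6:7693210-7693459, minus strand) and *Chac1* (chr2:119350992-119351241, plus strand) hold the C/EBP-ATF response element, and *Sdf2l1* (chr16:17132384-17132633, minus strand), the chaperone that varied most between PDX1P33T libraries, holds none of the 4.
Hspa5: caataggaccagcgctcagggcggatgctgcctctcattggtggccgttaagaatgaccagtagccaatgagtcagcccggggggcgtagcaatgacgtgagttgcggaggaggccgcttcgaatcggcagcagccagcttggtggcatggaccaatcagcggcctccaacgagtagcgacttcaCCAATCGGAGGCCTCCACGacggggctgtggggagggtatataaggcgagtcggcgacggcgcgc
Hsp90b1: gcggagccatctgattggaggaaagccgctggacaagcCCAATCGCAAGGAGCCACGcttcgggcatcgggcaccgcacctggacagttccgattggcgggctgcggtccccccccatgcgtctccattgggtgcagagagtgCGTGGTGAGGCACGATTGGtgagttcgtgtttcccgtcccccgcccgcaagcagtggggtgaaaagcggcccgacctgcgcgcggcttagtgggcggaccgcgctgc
Pdia6: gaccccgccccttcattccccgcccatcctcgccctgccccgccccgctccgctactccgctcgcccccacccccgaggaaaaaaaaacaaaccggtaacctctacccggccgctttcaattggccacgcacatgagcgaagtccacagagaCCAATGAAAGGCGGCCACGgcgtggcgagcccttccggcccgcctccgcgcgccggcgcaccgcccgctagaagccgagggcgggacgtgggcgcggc
Creld2: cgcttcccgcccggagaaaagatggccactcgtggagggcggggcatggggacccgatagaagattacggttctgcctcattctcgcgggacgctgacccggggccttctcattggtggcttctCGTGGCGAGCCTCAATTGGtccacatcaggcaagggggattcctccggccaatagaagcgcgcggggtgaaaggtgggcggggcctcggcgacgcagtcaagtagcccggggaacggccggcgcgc
Herpud1: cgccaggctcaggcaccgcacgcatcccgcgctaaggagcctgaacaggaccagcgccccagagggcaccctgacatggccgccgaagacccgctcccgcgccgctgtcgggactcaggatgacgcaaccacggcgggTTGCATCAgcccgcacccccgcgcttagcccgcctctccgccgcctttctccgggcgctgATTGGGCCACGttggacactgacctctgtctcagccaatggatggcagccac
Sdf2l1: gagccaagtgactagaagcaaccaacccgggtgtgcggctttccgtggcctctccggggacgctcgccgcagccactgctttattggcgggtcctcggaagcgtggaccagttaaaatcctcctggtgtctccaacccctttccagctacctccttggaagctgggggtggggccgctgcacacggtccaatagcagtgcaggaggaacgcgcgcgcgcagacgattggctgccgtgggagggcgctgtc
Asns: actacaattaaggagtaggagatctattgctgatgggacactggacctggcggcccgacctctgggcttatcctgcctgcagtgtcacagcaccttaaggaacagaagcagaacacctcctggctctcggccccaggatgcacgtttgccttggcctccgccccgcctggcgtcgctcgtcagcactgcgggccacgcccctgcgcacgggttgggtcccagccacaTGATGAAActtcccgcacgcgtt
Chac1: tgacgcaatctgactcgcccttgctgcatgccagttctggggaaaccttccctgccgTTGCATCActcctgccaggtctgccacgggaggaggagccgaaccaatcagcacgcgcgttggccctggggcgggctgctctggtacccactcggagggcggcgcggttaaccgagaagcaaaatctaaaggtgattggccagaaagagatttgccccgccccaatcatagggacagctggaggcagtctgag

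Folding genes were the most abundant of the 4 groups in PDX1P33T islets, with 15 of the 18 above a mean of 50 FPKM. The highest was *P4hb*, a protein disulfide isomerase, at 421, 613, 456, 418 and 446 FPKM in replicates 1 to 5, a mean of 471 ± 80.9 (SD, n = 5). *Pdia3*, the isomerase that works with the lectin chaperones, followed at 307 ± 59.9 FPKM. The lectin chaperone calreticulin (*Calr*) and BiP (*Hspa5*) were at 290 ± 14.6 and 280 ± 23.4 FPKM, and the orders of these 3 are within their SD. *Hspa5* ranked 97th of the 17600 gene IDs that had a value in every PDX1P33T library. The membrane-bound lectin chaperone calnexin (*Canx*) was lower than its soluble counterpart, at 108 ± 5.83 FPKM.

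Below these came *Ero1b*, the oxidase that recharges the isomerases and is known from islets, at 153 ± 5.33 FPKM, and *Hsp90b1*, which encodes the HSP90 of the ER, at 144 ± 3.02. *Ero1b* was 12.0 to 13.3 times as high as its paralog *Ero1a*, which stood at 12.0 ± 0.890 FPKM. The BiP cochaperones of the DNAJ type differed more: *Dnajb9* was at 140 ± 36.2 FPKM, *Dnajc3* at 59.1 ± 6.16 and *Dnajb11* at 34.2 ± 2.44. *Pdia6* was at 134 ± 19.4 and *Pdia4* at 67.6 ± 3.90 FPKM. *Sdf2l1*, a partner of the DNAJ cochaperones, was at 107 ± 36.1, *Manf*, a secreted ER stress protein that binds BiP, at 83.3 ± 18.3, *Hyou1*, an exchange factor for BiP, at 75.0 ± 2.91, and *Creld2* at 63.7 ± 4.59 FPKM. The *Manf* paralog *Cdnf* was nearly absent at 0.743 ± 0.0753 FPKM, which rests on as few as 55 reads in a library.

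Of the degradation genes, *Herpud1*, which gathers the retrotranslocation complex, was the highest, at 97.1, 113, 107, 98.2 and 105 FPKM in PDX1P33T replicates 1 to 5, and replicate 2 exceeded the others only slightly. *Derl1*, a channel component, followed at 74.7 ± 3.34 FPKM. The ubiquitin ligase *Syvn1* (HRD1) at 11.5 ± 1.27, its partner *Sel1l* at 14.4 ± 1.38, the mannosidase-like *Edem1* at 16.3 ± 0.602 and *Derl2* at 11.8 ± 2.39 FPKM lay close together. *Derl3* was at 1.42 ± 0.0945 FPKM.

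Among sensors and transcription factors, the transcripts of the 2 factors regulated after transcription, *Atf4* at 156 ± 9.22 and *Xbp1* at 120 ± 5.82 FPKM, were far above those of the membrane sensors. *Ern1* (IRE1) was at 14.2 ± 1.73, *Atf6* at 9.99 ± 1.16 and *Eif2ak3* (PERK) at 6.28 ± 0.412 FPKM. Gene-level values of *Xbp1* do not separate its spliced from its unspliced form. Of the stress-induced genes, the asparagine synthetase *Asns* was at 83.3 ± 5.75, *Chac1*, which degrades glutathione, at 49.5 ± 4.34, *Ddit3* (CHOP) at 30.4 ± 5.27 and *Trib3*, an inhibitor of AKT and of ATF4, at 24.7 ± 3.22 FPKM. The eIF2alpha phosphatase subunits *Ppp1r15a* (GADD34), which is inducible, and *Ppp1r15b*, which is constitutive, were at similar levels of 12.3 ± 2.25 and 12.5 ± 0.892 FPKM.

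**Figure D1:**
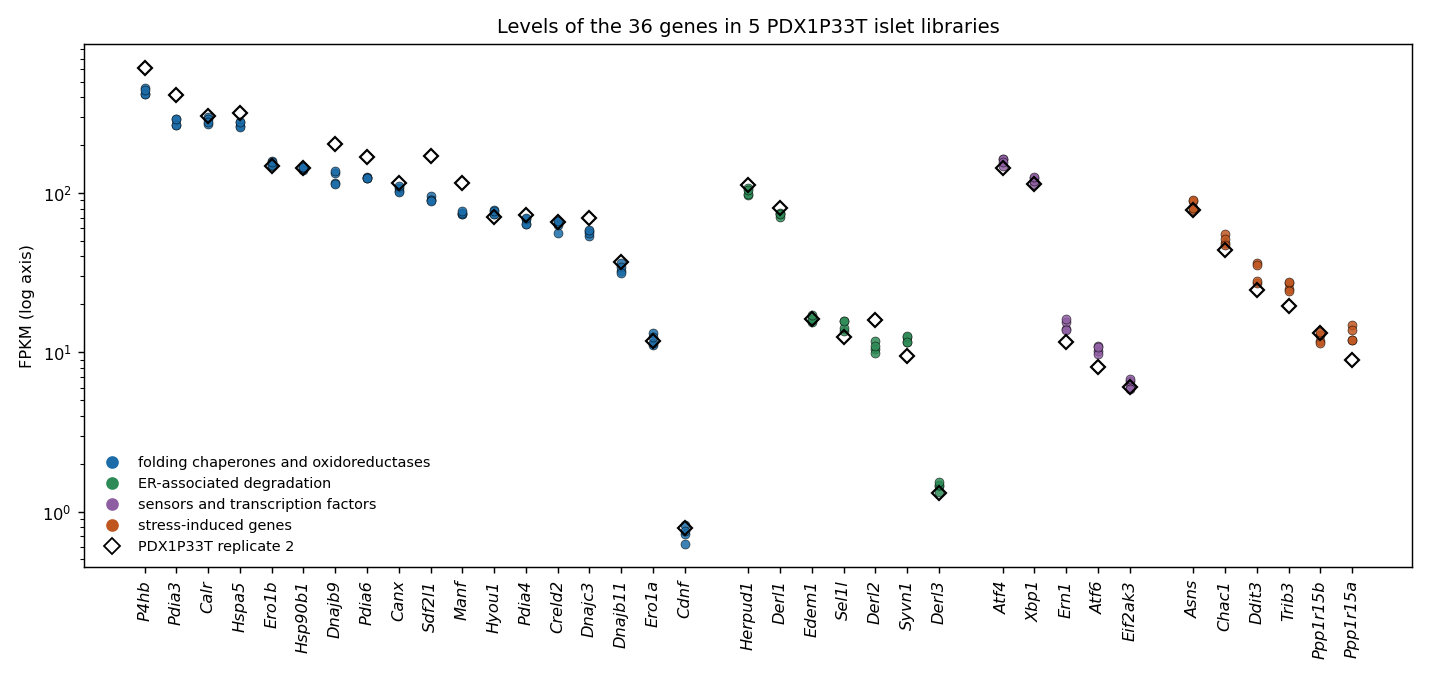
FPKM (log axis) of each of the 36 genes in the 5 PDX1P33T libraries, by role and by mean level, with open diamonds for replicate 2 and filled circles for the other 4. Folding genes reach 471 FPKM on average for *P4hb*, *Cdnf* and *Derl3* lie near 1, and the diamond stands above the circles for *Pdia3*, *Sdf2l1* and *Manf* and below them for *Trib3* and *Ppp1r15a*.

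Whether PDX1P33T islets hold more or less of these transcripts than wild-type islets was asked of the 22 genes with both genotypes. A gene was called where the limma p with Benjamini-Hochberg adjustment across the 19329 gene IDs did not exceed 0.05 and its groups differed 1.5-fold or more: 0 of 22 were called higher and 0 lower, against 0.0598% of the 6685 genes in the fit in each direction. Unadjusted limma p-values under 0.05 numbered 0 of 22, against 5.63% of the genes put back by length and level, and the smallest adjusted p was 0.586. In 0 of 22 did the groups not overlap, where this was so for 0.279% (higher) and 0.219% (lower) of the genes put back by length and level. By estimate, 13 of the 22 were higher in PDX1P33T and 9 lower, with a median log2 fold change of 0.07, beside -0.05 over all genes in the fit and 0.05 over those put back by length and level. For 18 of the 22 the 95% interval of the fold change lay within 1.5-fold in both directions, and it reached 1.5-fold for *Dnajb9*, *Sdf2l1*, *Ern1* and *Ddit3*. All but *Ddit3* were placed by length and level, a rule applied only to genes that the supplementary gene table had not placed. Of the genes placed by that table, 87.7% had an unadjusted limma p under 0.05. Few small p-values were thus left among the others, and these counts are descriptions, not an open test of no change. Fold changes are on the log2(FPKM + 0.1) scale. In bulk islets, fewer cells of a type and less RNA per cell cannot be told apart.

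Of the 12 folding genes with both genotypes, 9 were higher and 3 lower by estimate in PDX1P33T, with a median log2 fold change of 0.11. *Hspa5* was at 262, 318, 280, 260 and 278 FPKM in PDX1P33T replicates 1 to 5 and between 204 and 301 FPKM in wild-type, with a median of 270. The wild-type range held 4 of the 5 PDX1P33T libraries, and replicate 2 exceeded it. The means were 280 ± 23.4 (n = 5) and 263 ± 32.1 FPKM (n = 6), a log2 fold change of 0.10 with a standard error (SE) of 0.11 and an exact permutation p of 0.368. The 95% interval of the ratio ran from 0.907 to 1.26.

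*P4hb* had a wild-type range of 391 to 507 FPKM with a median of 417, which held 4 of its 5 PDX1P33T values, all but replicate 2. Its log2 fold change was 0.12 (SE 0.12, exact permutation p = 0.368). The largest estimates of this group were those of *Dnajb9*, at 0.33 (SE 0.19), *Sdf2l1*, at 0.27 (SE 0.17), and *Pdia3*, at 0.22 (SE 0.14), with adjusted p-values from limma of 0.724 to 0.848. In each of these 3 genes PDX1P33T replicate 2 had the highest value of all 11 libraries and wild-type replicate 3 the lowest. Without both of these libraries, an alternative added after the data were seen, the estimates were 0.07 for *Dnajb9*, 0.02 for *Sdf2l1* and 0.04 for *Pdia3*, and 5 folding genes were higher and 7 lower, with a median of -0.014. *Dnajc3* at 0.15, *Manf* at 0.17, *Ero1a* at 0.11 and *Pdia6* at 0.07 were likewise higher by estimate, with wild-type means of 53.1 ± 4.32, 73.6 ± 8.91, 11.4 ± 2.53 and 128 ± 18.2 FPKM (n = 6). *Calr* at -0.04, *Creld2* at -0.10 and *Ero1b* at -0.17 were lower, and *Ero1b* ranged from 128 to 229 FPKM in wild-type against 148 to 159 in PDX1P33T. Leaving out wild-type replicate 2, its highest library, moved the estimate of *Ero1b* to -0.085, and leaving out replicate 3, its lowest, moved it to -0.25.

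An exact permutation p under 0.05 was found for 1 of the 22 genes, against 8.26% of the genes put back by length and level, so the count is no more than the background. The gene is *Syvn1*, the ubiquitin ligase of ER-associated degradation. It was at 11.6, 9.42, 12.4, 12.6 and 11.6 FPKM in PDX1P33T replicates 1 to 5 and between 11.7 and 13.8 FPKM in wild-type, with a median of 13.5. Of the PDX1P33T libraries, 3 lay below the whole wild-type range and 2 inside it. The log2 fold change was -0.18 (SE 0.09, exact permutation p = 0.0476), with an adjusted p from limma of 0.622 over all gene IDs, and without PDX1P33T replicate 2 it was -0.11. *Sel1l* and *Derl1* had estimates of 0.06 and 0.07, with wild-type means of 13.8 ± 2.03 and 71.5 ± 6.78 FPKM (n = 6).

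*Xbp1* was at 115, 113, 125, 120 and 126 FPKM in PDX1P33T replicates 1 to 5, against 103 to 134 in wild-type with a median of 127, and all 5 lay inside the wild-type range. Its log2 fold change was -0.04 (SE 0.09, exact permutation p = 0.537). *Atf4* was at 164, 144, 149, 165 and 157 FPKM, against 121 to 193 in wild-type with a median of 176. All 5 values again lay inside the wild-type range, and the log2 fold change was -0.10 (SE 0.12, exact permutation p = 0.433). Without wild-type replicate 1, its lowest library, the estimate was -0.19, and without wild-type replicate 6, its highest, it was -0.057. *Atf6*, at a wild-type mean of 10.6 ± 0.993 FPKM (n = 6), had an estimate of -0.09. The sensor *Eif2ak3* has no identified wild-type row. Of the sensors with both genotypes, *Ern1* and *Atf6*, only *Ern1* had a higher estimate, 0.25 (SE 0.17). Wild-type replicate 3, at 7.27 FPKM, was its lowest library, without which the estimate was 0.11. Its wild-type mean was 12.2 ± 2.90 FPKM (n = 6).

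*Ddit3*, which encodes the transcription factor CHOP, had the lowest estimate of the 22. It alone of the 22 was placed by the supplementary gene table, which is ordered by the difference between genotypes. Of all genes placed this way, 87.7% had an unadjusted limma p under 0.05, so the values of *Ddit3* are descriptions. It was at 36.5, 24.6, 27.3, 35.3 and 28.0 FPKM in PDX1P33T replicates 1 to 5, and between 23.1 and 55.2 FPKM in wild-type, with a median of 41.3. Of the wild-type libraries, 5 lay above all PDX1P33T values and 1, replicate 1, below all of them. The means were 30.4 ± 5.27 (n = 5) and 40.5 ± 10.3 FPKM (n = 6), with a log2 fold change of -0.39 (SE 0.19), an exact permutation p of 0.108 and an adjusted p from limma of 0.589. Without wild-type replicate 1 the log2 fold change was -0.54 and the adjusted p from limma 0.154. Without wild-type replicate 3, its highest library, the log2 fold change was -0.29.

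*Chac1*, a target of ATF4 and CHOP, was at 55.7, 44.1, 48.9, 51.4 and 47.4 FPKM in PDX1P33T replicates 1 to 5 and between 44.3 and 69.9 in wild-type, with a median of 59.7. Here too 5 wild-type libraries lay above all PDX1P33T values, and wild-type replicate 1 lay within their range. Its log2 fold change was -0.23 (SE 0.11, exact permutation p = 0.0693), and -0.31 without wild-type replicate 1 with an adjusted p from limma of 0.177. Without wild-type replicate 5, its highest library, the estimate was -0.18. *Asns*, another ATF4 target, was at 78.4, 78.8, 89.0, 80.2 and 90.1 FPKM in PDX1P33T against 57.1 to 90.7 in wild-type, with a median of 82.1. Its estimate was 0.16 (SE 0.14), or 0.083 without either wild-type replicate 2 or wild-type replicate 3, its lowest libraries. Without wild-type replicate 1, its highest library, the estimate was 0.22. *Trib3*, *Ppp1r15a* and *Ppp1r15b* have no identified wild-type row.

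**Figure D2:**
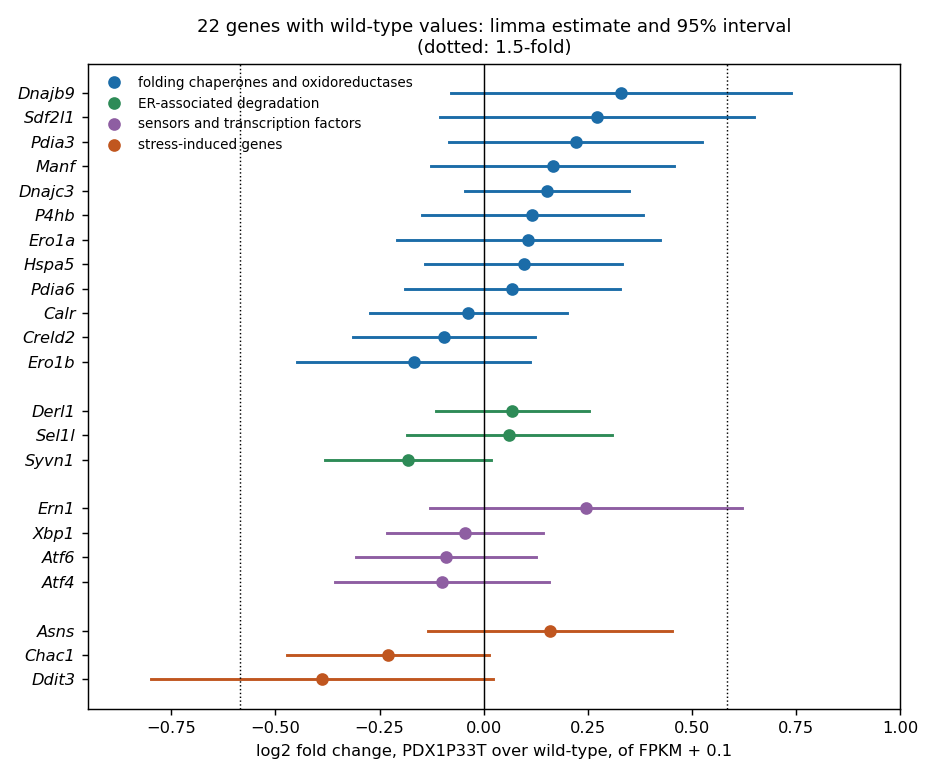
Limma estimates of the log2 fold change, PDX1P33T over wild-type, of FPKM + 0.1 for the 22 genes with both genotypes, by role, with 95% intervals as bars and dotted lines at 1.5-fold. All 22 intervals include 0, and those of *Dnajb9*, *Sdf2l1*, *Ern1* and *Ddit3* cross a dotted line.

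**Figure D3:**
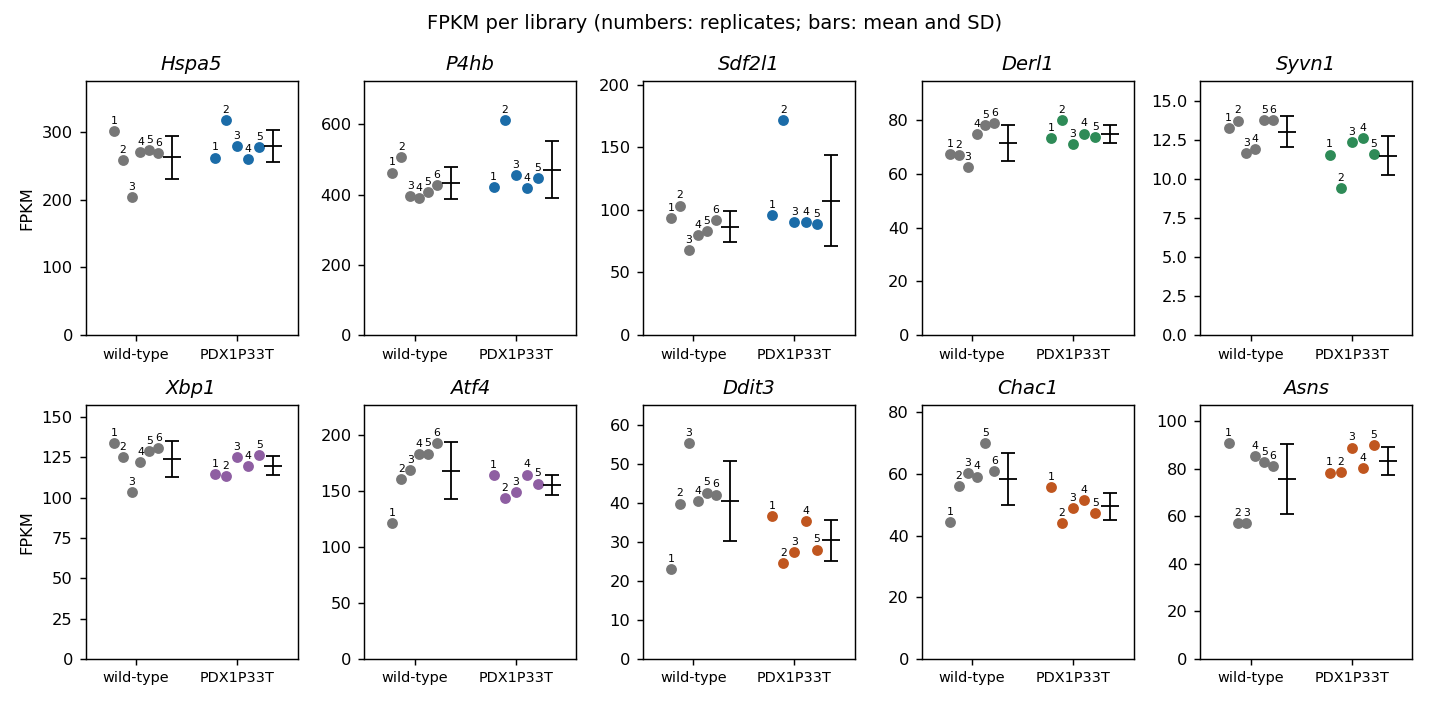
FPKM of 10 genes in each wild-type (grey) and PDX1P33T (coloured by role) library, with replicate numbers at the points and the mean and SD as bars beside them. The genotypes overlap for all 10 genes, replicate 2 is the highest PDX1P33T library for *P4hb* and *Sdf2l1*, and wild-type replicate 1 is the lowest of its genotype for *Atf4*, *Ddit3* and *Chac1*.

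Within genotypes, these genes moved with particular libraries. In PDX1P33T replicate 2, 12 of the 18 folding genes had the highest and 1 the lowest value of the 5 PDX1P33T libraries, while none of the 11 sensors, transcription factors and stress-induced genes had the highest and 8 had the lowest. Over the 36 genes together the shares were 41.7% highest and 33.3% lowest, close to the 41.5% and 36.9% over all gene IDs of at least 1 FPKM. *Sdf2l1* stood at 172 FPKM there against 88.6 to 96.1 in the other 4 libraries, *Dnajb9* at 202 against 114 to 137, *Manf* at 116 against 74.0 to 77.6 and *Pdia3* at 412 against 269 to 292. These 4 were 1.47 to 1.90 times the median of the other 4 libraries.

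The 6 folding genes that were not highest there were *Hsp90b1*, *Ero1a*, *Ero1b*, *Hyou1*, *Creld2* and *Cdnf*. *Hsp90b1* varied least of the 36, with a ratio of 1.06 between its highest and lowest library, and *Hyou1* was lowest in replicate 2, at 71.3 against 73.9 to 78.8 FPKM. *Hspa5* was highest in replicate 2 by a smaller margin, at 318 FPKM against 260 to 280. Of the stress-induced genes, *Trib3* was at 27.2, 19.6, 25.1, 27.7 and 24.1 FPKM and *Ppp1r15a* at 14.8, 8.92, 12.0, 13.8 and 12.0, so that replicate 2 was the lowest for both. The ratio of *Hspa5* to *Ddit3* was 12.9 there and as low as 7.18 among the other PDX1P33T libraries. In wild-type it ran from 3.69 in replicate 3 to 13.1 in replicate 1.

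Levels by gene length and of cell type markers also differed in the same library. Over all gene IDs of at least 1 FPKM, the median log2 deviation of PDX1P33T replicate 2 from the other 4 libraries was 0.41 for genes under 1500 bases, 0.10 from 1500 to 3000 bases, -0.01 from 3000 to 5000 and -0.10 above that. *Sdf2l1*, at a recovered length of 1108 bases, had a deviation of 0.93, and *Manf*, of 3524 bases, and *Derl2*, of 8049 bases, had 0.64 and 0.57. *Ddit3* and *Trib3*, of 1713 and 2125 bases, had -0.36 and -0.41. The summed level of the acinar markers was 142 FPKM in replicate 2 and 25.2 to 40.7 in the other 4, with 12 of the 17 markers in the table highest there and *Pdia2*, *Gp2* and *Zg16* at 0 in all 5. The plasma and B cell markers summed to 17.5 FPKM there against 10.5 to 11.7, with 1 of the 6 in the table highest there, *Cd79a* at 15.7 FPKM against 8.41 to 9.73. The endothelial markers summed to 53.1 FPKM against 89.3 to 123, with all 4 lowest there. The beta cell markers also had their highest sum there, 333379 FPKM against 235821 to 290176, with 4 of the 7 highest and 2 lowest. The part of gene length and of these cells in the levels of the folding genes was not tested.

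**Figure D4:**
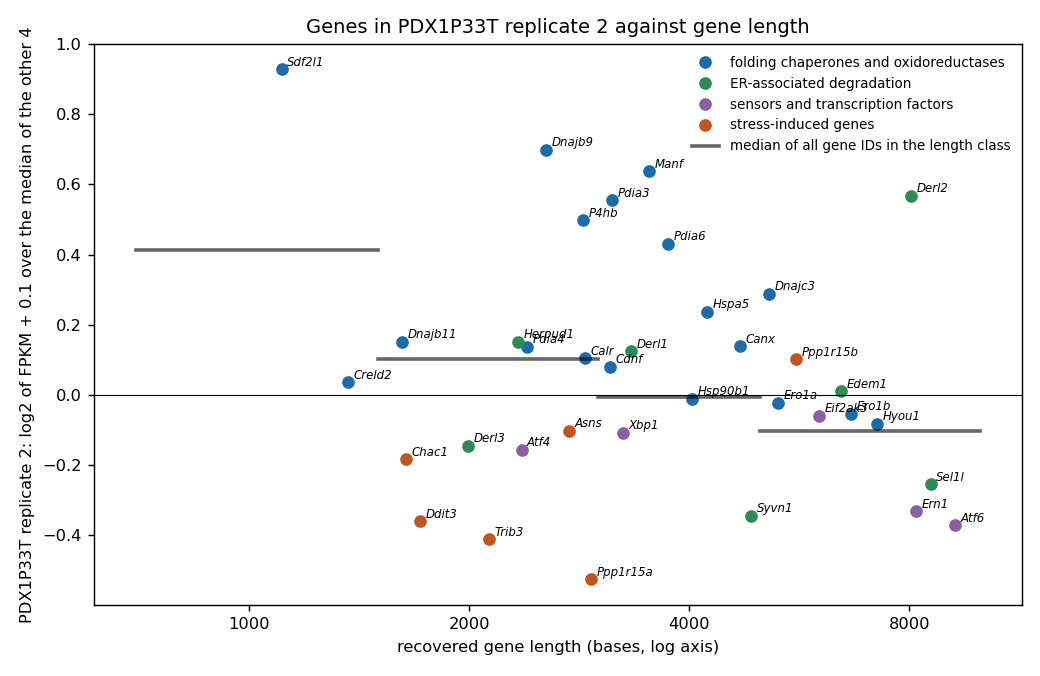
Log2 deviation of PDX1P33T replicate 2 from the median of the other 4 libraries for each of the 36 genes, against the recovered gene length in bases (log axis), with grey lines for the medians of all gene IDs in 4 length classes. *Sdf2l1*, *Dnajb9*, *Manf* and *Derl2* lie well above the line of their class, and *Ddit3*, *Trib3* and *Ppp1r15a* below it.

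In wild-type replicate 3, 16 of the 22 genes (72.7%) had the lowest value of their genotype, against 34.9% of genes of at least 1 FPKM, among them 9 of the 12 folding genes and *Xbp1*, *Ern1* and *Atf6*. *Hspa5* was at 204 FPKM there against 259 to 301 in the other 5, *Dnajb9* at 72.4 against 95.03 to 146 and *Sdf2l1* at 68.0 against 80.02 to 103. *Ddit3* was instead at its highest, 55.2 against 23.1 to 42.6 FPKM. The same library held the most endothelial RNA, with 146 FPKM summed over the 3 markers put back (*Pecam1*, *Cdh5* and *Kdr*) against 28.1 to 62.5, and the most *Sst*, 10589 against 4309 to 7479 FPKM, and the most *Ppy*, 14937 against 6397 to 10060. Its median log2 deviation was 0.15 for genes under 1500 bases and -0.12 for those of at least 5000. The part of these cells and of gene length in the lower chaperone levels was not tested. Wild-type replicate 2 was the highest of its genotype for 7 of the 22, with *Calr* at 388 FPKM against 265 to 304. The share over all genes is not given for this library, so its count has no background beside it.

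**Figure D5:**
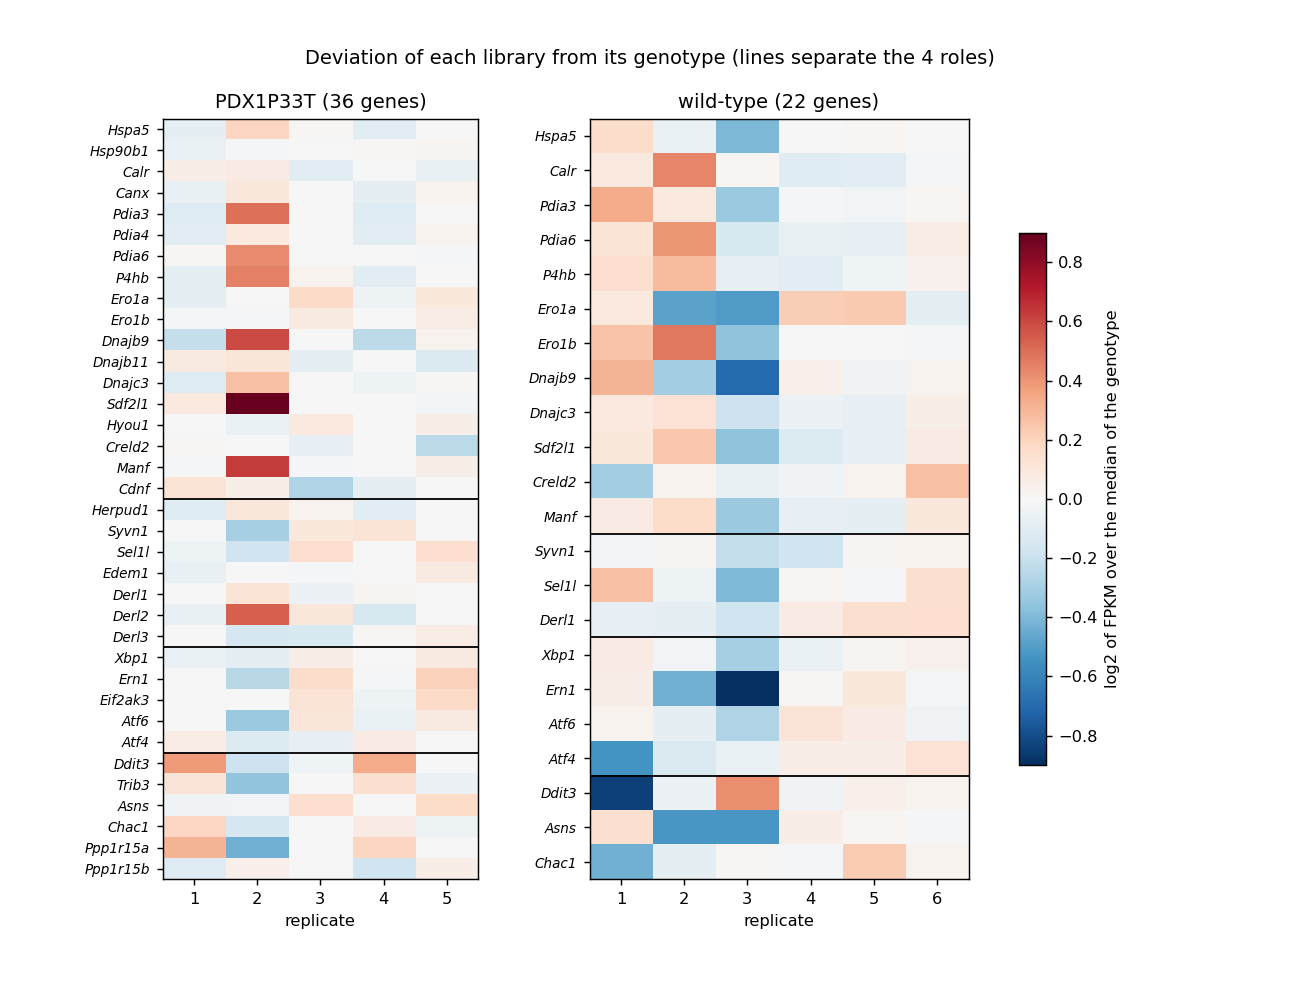
Log2 of the FPKM of each library over the median of its genotype, for the 36 genes in PDX1P33T (left) and the 22 with identified rows in wild-type (right), with horizontal lines between the 4 roles. PDX1P33T replicate 2 is red for *Sdf2l1*, *Manf*, *Dnajb9* and *Pdia3* and blue for *Trib3* and *Ppp1r15a*, and wild-type replicate 3 is blue for most genes and red for *Ddit3*.

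The spread was larger in wild-type for 13 of the 22 genes, as it was for 55.1% of genes of at least 1 FPKM. The median coefficient of variation, SD over mean, of the 22 was 14.3% in wild-type and 10% in PDX1P33T. Over all 36 genes in PDX1P33T it was 7.88%, and 4.82% without replicate 2.

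Genes that share an ER stress element did not share one behaviour. Of the 12 with either ER stress element, 7 were highest and 2 lowest in PDX1P33T replicate 2, with a median deviation of 0.12 on the log2 scale and a range from -0.35 for *Syvn1* to 0.43 for *Pdia6*. Of the 19 with neither, 6 were highest and 8 lowest, from -0.53 for *Ppp1r15a* to 0.93 for *Sdf2l1*, whose window is printed above. Between genotypes, 3 of the 7 genes with an element and both genotypes were higher in PDX1P33T and 4 lower, with a median log2 fold change of -0.04, against 8 and 4 of 12 and a median of 0.11 without one. No test of this difference was made.

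Further genes of the pathway were described from 4 lists of 99 genes, 55 of them with both genotypes. Of these 55, 0 were called in either direction, 28 were higher and 27 lower by estimate, and 9 had an unadjusted limma p under 0.05, 5 of them higher. Of these 9, 7 are the further genes whose wild-type row was known from the supplementary gene table, which is ordered by the difference between genotypes, so that 87.7% of all genes placed this way have such a p. Among the 48 put back by length and level there were 2, *Ufd1* and *Vcp*, or 4.17% against 5.63% of all genes put back in this way. Among further folding genes, 7 of 15 were higher and 8 lower, and the smallest limma p-values belonged to *Uggt2*, a folding sensor for glycoproteins, *Tmx1*, a membrane-bound thioredoxin, and *Prdx4*, a peroxiredoxin of the ER. *Uggt2* was at 1.00 ± 0.197 FPKM (n = 5) in PDX1P33T and 0.680 ± 0.136 (n = 6) in wild-type, a log2 fold change of 0.50 (SE 0.16, exact permutation p = 0.00866). *Uggt2*, *Tmx1*, *Prdx4*, *Ube2j2* and *Atf3* are among the 7, and their values are therefore descriptions. An exact permutation p under 0.05 was found for 77.9% of all genes placed by the table. Of the 55, *Tmx1* alone had groups that did not overlap, where 6.16% of all genes placed by the table were higher and 6.58% lower without overlap, with 32.3 to 53.7 FPKM in PDX1P33T and 26.9 to 31.6 in wild-type, and its exact permutation p of 0.0043 is the smallest that the design allows. *Prdx4* had an estimate of 0.41, and all of these had adjusted limma p-values of 0.482 or more. All 3 were highest in PDX1P33T replicate 2, at 1.30, 53.7 and 20.4 FPKM, and at most 1.03, 36.7 and 11.5 FPKM in the other 4. Without that library the estimates were 0.41, 0.24 and 0.23.

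Of 11 further degradation genes 7 were higher and 4 lower by estimate. *Ube2j2*, a ubiquitin-conjugating enzyme, and *Vcp*, the ATPase that extracts substrates, had log2 fold changes of -0.24 each, and the VCP cofactor *Ufd1* had 0.17, with adjusted limma p-values of 0.482 to 0.534. Of 15 translocation and glycosylation genes 11 were higher and 4 lower, and those with the smallest limma p were *Ssr4* at 0.33, *Sec61b* at 0.38 and *Stt3a* at 0.18. *Sec61b*, a subunit of the translocation channel, was at 234 FPKM in PDX1P33T replicate 2 and between 95.04 and 110 in the other 4. *Ssr4* was at 157 FPKM in that library and between 85.3 and 90.7 in the other 4. Of 14 further stress response genes 3 were higher and 11 lower, with the transcription factors *Atf3* at -0.57 (SE 0.25) and *Cebpb* at -0.22 and the translation factor subunit *Eif2s1* at 0.28. *Eif2s1* was at 17.9 FPKM in PDX1P33T replicate 2 and between 8.56 and 10.4 in the other 4. Estimates without that library are not given for *Ssr4*, *Sec61b* and *Eif2s1*. The list medians of log2 fold change were -0.05, 0.14, 0.12 and -0.11 for further folding, degradation, translocation and stress response genes.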

How the data were processed

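Bulk islet RNA was measured in 6 wild-type and 5 PDX1P33T libraries, grouped by the labels. The deposited values are FPKM per gene ID and library; per the labels and methods, the authors used fastp 0.23.1, HISAT2 2.0.5, featureCounts 1.5.0-p3 and DESeq2 1.20.0 on GRCm39. Their methods name both stranded and unstranded library protocols, so reads of overlapping and antisense genes cannot be told apart. Columns of the authors' own comparisons in the supplementary gene table were not used.

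Symbols were taken from GENCODE vM21 and RefSeq synonyms, and all 36 genes matched 1 row each. The reads counted per library and the gene lengths were recovered from the FPKM values, as the smallest length between 20 and 130000 bases that turned every value into a whole read number, with a tolerance of 2e-06 reads plus a relative 1e-08, which gave 98.3% of the lengths in the supplementary gene table. Wild-type rows were put back for 6724 genes: 1711 by the wild-type reads of that table and 5013 by equal length and at least 100 reads, where the group means lay within 4-fold and other candidate rows did not. The length rule was checked on genes whose row was known from that table: of 642 such genes 642 were right, which allows an error of up to 0.467% among them. The 5013 genes themselves could not be checked, so this limit need not hold for them. The limit on other candidate rows was set after the matching counts were seen.

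Values of log2(FPKM + 0.1) were modelled in limma 3.58.1 (R 4.3.3) with trend and robust empirical Bayes, without covariates, for the 6685 genes not listed at 0 in all PDX1P33T libraries, and p-values were adjusted over 19329 gene IDs with missing genes taken as unchanged. For single genes all 462 allocations of the libraries gave an exact permutation p, two-sided, of 0.0043 or more. The study calls the libraries biological replicates, and p-values measure the spread between libraries. The genes, lists and tests were chosen with earlier results of these data known. The text names all 36 genes, gives library values for those with an exact p under 0.05, the highest of each role and *Hspa5*, *Ddit3*, *Atf4*, *Xbp1* and *Trib3*, and names 3 genes per further list, those with the smallest limma p; other library values were added after they were seen. Alternatives were the pseudocount, filter, scaling, empirical Bayes options, fold limit, adjustment, replicate block, row matching and each library left out. Python 3.11.15, numpy 2.4.6, pandas 2.3.3 and matplotlib 3.10.9 were used.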

Additional observations from a re-analysis of the deposited data

Results flagged for a closer look

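Of 58 sets of libraries (36 genes in PDX1P33T and 22 in wild-type), 7 held a library far from the others by Dixon's criterion at the 95% level. Chance would give about 2.9 for independent sets, but these sets share the same libraries and are not independent. PDX1P33T replicate 2 was that library, and the highest, in 6 of the 7: *P4hb* at 613 FPKM against 418 to 456 in the other 4, *Pdia3* at 412 against 269 to 292, *Dnajb9* at 202 against 114 to 137, *Sdf2l1* at 172 against 88.6 to 96.1, *Pdia6* at 168 against 124 to 126, and *Manf* at 116 against 74.0 to 77.6. The sums of acinar and beta cell markers and the short genes were also high in this library, with the values given above, and their part was not tested. The remaining one was *Calr* in wild-type replicate 2, at 388 FPKM against 265 to 304. How often a library lies this far from the others over all genes is not given, so the count cannot be read as particular to these genes. Over all gene IDs of at least 1 FPKM, PDX1P33T replicate 2 was the highest of its 5 libraries for 41.5% and the lowest for 36.9%.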

How the results depend on the processing

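None of the 22 genes with both genotypes was called under any alternative, and the smallest adjusted limma p was 0.154 (*Ddit3* without wild-type replicate 1). Of 486 single-gene values under an alternative, 478 kept the direction and 8 reversed it. *Hspa5*, *Pdia6*, *P4hb* and *Manf* were at -0.022, -0.054, -0.0054 and -0.022 on the log2 scale without both PDX1P33T replicate 2 and wild-type replicate 3. With 1 library left out, *Calr* ranged from -0.070 to 0.040 (reversed without wild-type replicate 2), *Pdia6* from -0.017 to 0.14 (without PDX1P33T replicate 2) and *Sel1l* from -0.016 to 0.11 (without wild-type replicate 3). Of all genes in the fit, 8 were called, but 5 with a pseudocount of 1, 4 with a mean of at least 1 FPKM, 3 with rows within 2-fold, 3 at a log2 fold change of 1.5 and 4 to 9 with 1 library left out; the counts fell to 5 without wild-type replicate 2, 4 or 5 and to 4 without PDX1P33T replicate 1, 3 or 5. The median coefficient of variation of the 36 genes in PDX1P33T ranged from 4.82% (without replicate 2) to 8.85%.

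Adding a replicate block left 2 genes called when it followed the sample titles and 4 when it followed the library names, and *Sel1l* was at -0.016 under the latter. In each block fit a wild-type library without a partner of its number no longer counts (replicate 6 by titles, replicate 3 by library names), so that its estimates equal those with that library left out. Deviations of same-numbered libraries from their genotype correlated between -0.52 and 0.08. Such correlations cannot decide whether the libraries were handled in pairs. The order of rows as a further key was not run, because the deposited table is sorted by gene ID. The matching accepts no difference above 4-fold and left 14 of the 36 genes without wild-type values. The cause of these movements was not tested.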
